A study of Arabidopsis thaliana with 12 samples.

Results

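MYB93 (AT1G34670), MYB53 (AT5G65230), MYB67 (AT3G12720) and MYB9 (AT5G16770) are 4 R2R3-type MYB transcription factor genes of Arabidopsis thaliana, out of 25410 genes with a probe on the arrays. They were selected on their array signal over the 4 groups of samples and on their place in the MYB family, so their own values in each comparison describe them and carry no test. All 4 genes had a probe, 5 probes in all, and all 4 passed the filter on dim probes. Whole seedlings were sown on medium holding either the solvent dimethyl sulfoxide (DMSO) or 15 µM 3-bromo-7-nitroindazole (3B7N), a compound that inhibits nitric oxide synthases of mammals. They spent 3 days in darkness in the cold and then 4 days in continuous blue light at 5 µmol per m2 and s. The 4 groups, with 3 one-colour arrays each, were wild type Col-0 on DMSO, wild type Col-0 on 3B7N, the double mutant cry1cry2 on DMSO and cry1cry2 on 3B7N. The labels name no transgene, and do not say whether the samples of a group were separate cultures, so p-values measure the spread between these samples only. The study's title concerns hypocotyl elongation caused by chemicals in blue light, a light that the cryptochrome receptors CRY1 and CRY2 sense.

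Suberin is a polyester of fatty acids, glycerol and phenolic acids that is laid down on the wall of root endodermis, periderm, seed coat and wounded cells, where it limits the passage of water and solutes. MYB factors switch on the genes for its synthesis: MYB53 and MYB93, with MYB41 and MYB92, promote suberin in the root endodermis, and MYB9 acts with MYB107 in the seed coat. MYB93 is also known as a regulator of lateral root development. The Casparian strip, a lignin ring that seals the endodermis before suberin is laid down, is built by CASP membrane scaffold proteins and their partners under MYB36.

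The arrays lay on 3 slides. Slide 1 held all wild type arrays on DMSO and array 1 of wild type on 3B7N, slide 2 held arrays 2 and 3 of wild type on 3B7N with arrays 1 and 2 of cry1cry2 on DMSO, and slide 3 held the rest. The 75th percentile of the processed signal lay between 882.6 and 6794 over the 12 arrays, and 64.4% to 81.2% of the probes were well above background. The labels of genotype fitted the cryptochrome probes: the CRY1 probe A_84_P800509 gave signals of 10150 to 21470 on the 6 wild type arrays and 3.91 to 8.12 on the 6 mutant arrays, and the CRY2 probe A_84_P814798 gave 4541 to 11320 and 5.92 to 16.3. Signals below are log2 processed signals relative to the 75th percentile of their array, which makes a value of 0 the 75th percentile itself, and one probe's level is not comparable with another's. A gene was called where limma's Benjamini-Hochberg adjusted p over 20487 genes was under 0.05 and the log2 difference was at least 1 in either direction; of list genes, rose, fell and passed the test refer to such calls.

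With 3B7N, MYB93, MYB67 and MYB9 were higher than on DMSO in both genotypes, with no overlap between the groups, and MYB53 was higher without overlap in cry1cry2 and with overlap in wild type. For MYB93 and MYB53 the difference was the larger one in cry1cry2, while for MYB9 it was nearly equal in both. The same order for MYB67 rests on DMSO signals that were mostly not above background, and with normexp its differences were 0.72 and 0.80. On DMSO, MYB93 and MYB53 were lower in cry1cry2 than in wild type. With normexp these DMSO differences were -0.49 for MYB93 and -0.33 for MYB53. The change with 3B7N was then larger in cry1cry2 by 0.66 for MYB93 and 0.17 for MYB53. None of these normexp values was called. The direct comparison of the 3B7N groups gave small differences for MYB93, MYB53 and MYB9.

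MYB93 gave relative log2 signals of -3.89, -4.25 and -4.36 on the 3 wild type arrays on DMSO and of -2.15, -2.16 and -2.06 on those with 3B7N. The cry1cry2 arrays read -5.29, -6.01 and -5.18 without 3B7N and -1.77, -1.63 and -1.66 with it. None of the 4 groups overlapped, and their order from the highest was cry1cry2 on 3B7N, wild type on 3B7N, wild type on DMSO and cry1cry2 on DMSO. The group means ranged from -1.68 ± 0.08 to -5.49 ± 0.45 (SD, n = 3). MYB93 was thus 2.05 ± 0.20 (log2 difference ± SE) higher with 3B7N in wild type, 4.13-fold, and 3.81 ± 0.20 higher in cry1cry2, 14.03-fold. Its probe was well above background on all 12 arrays, with processed signals from 39.9 to 1317.

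The MYB53 probe read -4.89, -5.24 and -5.07 (relative log2 signal) in wild type without the compound, against -4.95, -4.11 and -4.29 with it. These groups overlapped: array 1 on 3B7N, the one that shares a slide with the DMSO arrays, lay among the DMSO values, and the other two lay above them. In cry1cry2 the values were -6.22, -6.11 and -6.03 on DMSO and -4.08, -3.83 and -4.09 on 3B7N, with a wide gap between the groups. The log2 difference with 3B7N was 0.62 ± 0.20 (SE) in wild type, under the size of a call, and 2.12 ± 0.20 in cry1cry2, 4.34-fold. The order of the 4 groups was that of MYB93, but the lowest cry1cry2 array on 3B7N and the highest wild type array on 3B7N were almost level, and the wild type groups were not apart.

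The MYB67 probe was well above background on 0 of 3 wild type arrays on DMSO, 1 of 3 cry1cry2 arrays on DMSO and all 6 arrays with 3B7N. The filter on dim probes asked for every array of some group, so MYB67 passed it only through the 3B7N groups, where it was higher. Wild type arrays read -8.69, -8.40 and -8.55 (relative log2 signal) without 3B7N and -6.69, -5.10 and -6.25 with it. In cry1cry2 the readings were -8.01, -9.21 and -9.16 on DMSO and -4.59, -4.71 and -4.70 on 3B7N. The 3B7N arrays of cry1cry2 lay above those of wild type, which lay above all DMSO arrays, and the DMSO groups overlapped. The measured difference with 3B7N was 2.54 ± 0.38 (log2, SE) in wild type. Since the probe was not well above background there on DMSO, only a bound of at least 1.99-fold is given, computed against the lowest signal that was well above background on each array. In cry1cry2 the difference was 4.13 ± 0.38, measured against a DMSO group with 1 of 3 arrays above background.

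For MYB9, wild type arrays read -6.01, -5.53 and -5.49 (relative log2 signal) without 3B7N and -4.14, -4.41 and -4.39 with the compound. Those of cry1cry2 read -5.46, -4.88 and -5.79 without it, against -4.22, -4.05 and -3.87 with it. The arrays fell by medium: every array with 3B7N lay above every DMSO array, whichever the genotype, and the genotypes overlapped on both media. The difference with 3B7N was 1.37 ± 0.22 (log2, SE) in wild type, 2.58-fold, and 1.33 ± 0.22 in cry1cry2, 2.51-fold. A second MYB9 probe was well above background on 0 of 6 wild type arrays, 1 of 3 cry1cry2 arrays on DMSO and all 3 cry1cry2 arrays on 3B7N, so it measured no difference in wild type. Its difference in cry1cry2 was 1.59, against a DMSO group with 1 array above background.

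**Figure D1:**
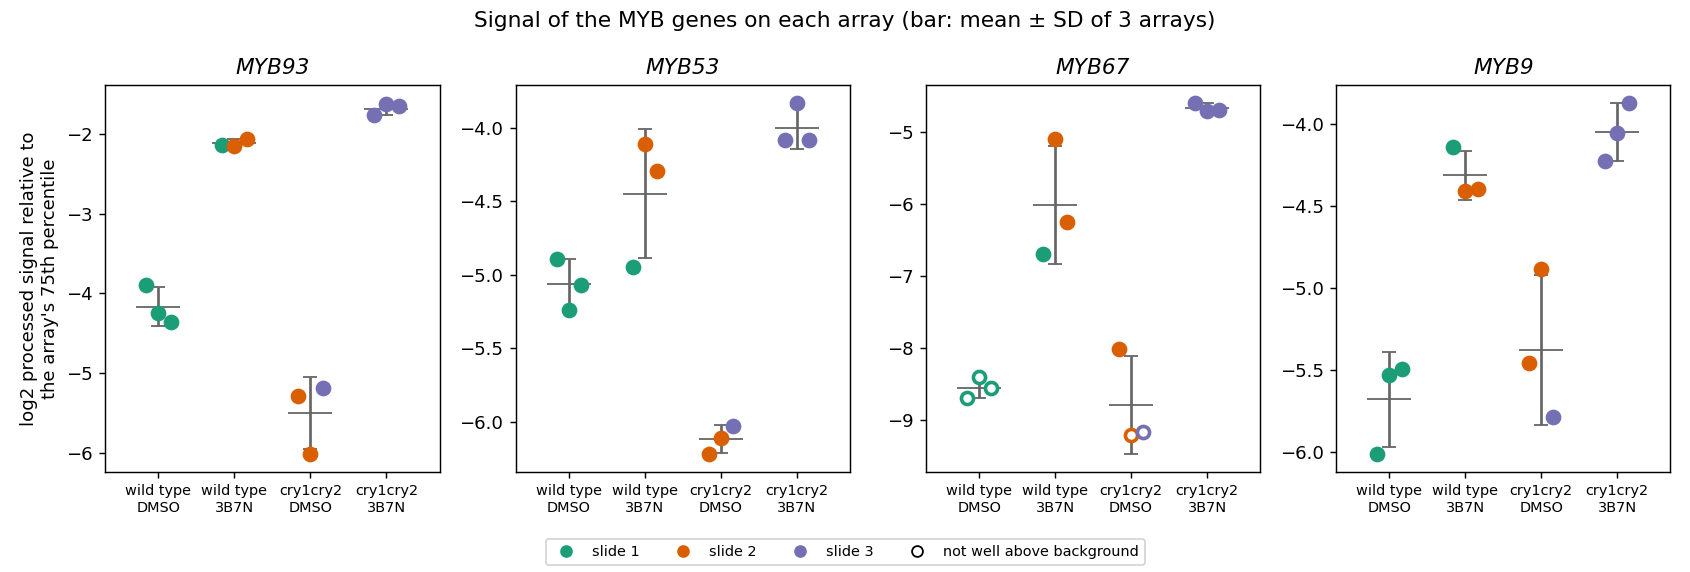
Each point is 1 array, with its log2 processed signal relative to the 75th percentile of that array on the vertical axis and the 4 groups along the horizontal axis; colour gives the slide, open points were not well above background, and the grey bars are the mean ± SD of 3 arrays. MYB93 runs from -6.01 to -1.63 with no overlap between groups, and MYB9 separates by medium but not by genotype.

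The call rule took 3 of the 4 genes as higher with 3B7N in wild type, where it took 5.89% of all 20487 genes as higher and 9.09% as lower. It took all 4 as higher in cry1cry2, against 2.11% of all genes higher and 1.63% lower. Because the genes were chosen with these comparisons known, nothing is read from those counts. The same holds for every call of these 4 genes below, between genotypes, for the interaction and under other settings: it describes them and carries no test. Both comparisons of genotype use the same arrays again. On DMSO, cry1cry2 minus wild type was -1.33 ± 0.20 (log2, SE) for MYB93 and -1.05 ± 0.20 for MYB53, with no overlap between the groups. These 2 genes met the call rule as lower (MYB53 not under quantile scaling, at -0.95, nor without array 1 of wild type on DMSO, at -0.97), as did 11.4% of all genes, while 7.64% were called higher. MYB9 at 0.30 ± 0.22 overlapped between the genotypes on DMSO. So did MYB67, whose DMSO signals were above background on 1 of 6 arrays and give no measured difference. On 3B7N, cry1cry2 minus wild type was 0.44 ± 0.20 for MYB93, 0.45 ± 0.20 for MYB53, 0.27 ± 0.22 for MYB9 and 1.35 ± 0.38 for MYB67. MYB67 alone met the call rule there, beside 4.02% of all genes called higher and 3.27% called lower, and it no longer met it in the fits without array 1 or array 3 of wild type on 3B7N, where the difference was 1.01 or 1.23, nor in those without any single cry1cry2 array on 3B7N, where it was between 1.31 and 1.37.

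The change with 3B7N in cry1cry2 minus that in wild type, the interaction of genotype and compound, was 1.77 ± 0.29 (log2, SE) for MYB93, 1.50 ± 0.28 for MYB53 and 1.59 ± 0.54 for MYB67, whose DMSO arrays were mostly not above background. For MYB9 it was -0.04, with a 95% interval from -0.73 to 0.66. The first 3 met the call rule, which took 12.7% of all genes in this direction and 5.92% in the other; MYB67 lost it without any one of 10 of the 12 arrays, and with median scaling (1.45) and quantile scaling (0.70). With normexp none of the 3 met it, at 0.66 for MYB93, 0.17 for MYB53 and 0.08 for MYB67. Since the interaction is built from 4 groups, the genotype difference on DMSO enters it as well as that on 3B7N. These were -1.33 and 0.44 for MYB93 and -1.05 and 0.45 for MYB53, so the lower DMSO level in cry1cry2 made up the larger part.

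Slide and group overlapped only in part, so the differences were also taken within a slide. On slide 1, array 1 of wild type on 3B7N lay above the mean of the 3 wild type DMSO arrays by 2.02 (log2) for MYB93, 1.86 for MYB67 and 1.54 for MYB9, but by 0.12 for MYB53. On slide 3, the cry1cry2 arrays with 3B7N lay above the DMSO array by 3.50 for MYB93, 2.03 for MYB53, 4.49 for MYB67 and 1.74 for MYB9. Slide 2 held wild type on 3B7N beside cry1cry2 on DMSO, 2 arrays each: wild type on 3B7N was higher by 3.54 for MYB93, 1.96 for MYB53, 2.93 for MYB67 and 0.77 for MYB9, without overlap. No slide held both genotypes on the same medium. With slide as a block in the fit, the genotype differences on 3B7N were -0.04 ± 0.37 for MYB93 and 0.07 ± 0.26 for MYB53, and 1.56 ± 0.63 for MYB67, which no longer met the call rule. On DMSO the blocked differences were -1.52 ± 0.37 for MYB93 and -1.84 ± 0.26 for MYB53, and both still met it. The blocked interaction was 1.48 for MYB93, 1.91 for MYB53, 2.63 for MYB67 and 0.20 for MYB9. All these blocked values combine the within-slide differences above and are no separate support for them. Slides 1 and 2 are joined only by array 1 of wild type on 3B7N, and slides 2 and 3 only by array 3 of cry1cry2 on DMSO.

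With normexp run on the median signals, which changes the signal summary and the background model and adds an offset of 50 to every signal, the difference in wild type was 1.53 ± 0.46 (log2, SE) for MYB93, 0.55 ± 0.55 for MYB53, 0.72 ± 0.72 for MYB67 and 0.85 ± 0.50 for MYB9. In cry1cry2 it was 2.20 ± 0.46, 0.72 ± 0.55, 0.80 ± 0.72 and 0.50 ± 0.50 in the same order. MYB93 alone met the call rule under this correction, in either genotype. The processed signals on DMSO were 39.9 to 175 for MYB93, 37.4 to 91.4 for MYB53, 4.37 to 26.5 for MYB67 and 30.5 to 155 for MYB9, and why the calls differ was not tested. The genotype differences of MYB93 and MYB53 on DMSO were -0.49 and -0.33 with normexp, and neither met the call rule.

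**Figure D2:**
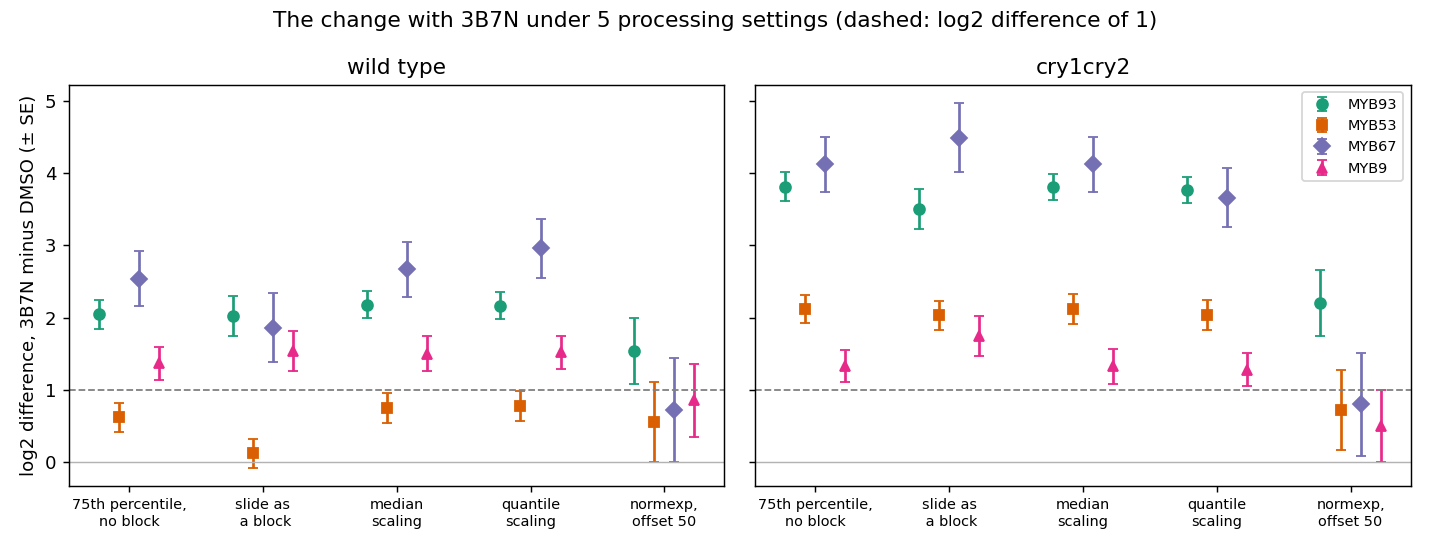
The log2 difference between 3B7N and DMSO (vertical axis, ± SE) of the 4 genes in wild type and in cry1cry2 under 5 settings: the 75th percentile, the slide as a block, median scaling, quantile scaling and normexp. In cry1cry2 MYB93 lies between 2.20 and 3.81, and with normexp MYB53, MYB67 and MYB9 fall below the dashed line at a log2 difference of 1.

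The authors' deposited table of changed probes, which gives folds without a sign, lists MYB93 at 4.03-fold and MYB9 at 2.51-fold among 3453 probes for 3B7N in wild type. For cry1cry2, the authors' deposited table lists MYB93 at 14.14-fold, MYB53 at 4.37-fold and MYB9 at 2.53-fold among 577 probes. MYB67 is in neither list of the authors' deposited table.

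All gene lists below were chosen with earlier results of these data known, so the counts and p-values of their genes are a description. The other MYB factors linked to suberin did not move as a group. Of 7 such genes tested, 0 rose and 1 fell with 3B7N in wild type (median log2 difference 0.26, against -0.06 over all genes), and 0 rose and 0 fell in cry1cry2 (median -0.16, against 0.04), by limma's test with adjustment over all genes. MYB41, an activator of suberin synthesis under stress, had differences of 1.39 ± 0.53 (SE) in wild type and 0.91 ± 0.53 in cry1cry2, neither past the test, though the first passed under median scaling. Its wild type groups did not overlap. The SE is pooled over all groups, and in cry1cry2 on DMSO array 2 read -0.74 (relative log2 signal), against -2.96 and -3.02. MYB92, which acts beside MYB93 and MYB53 in the endodermis, had -0.27 ± 0.15 in both genotypes. MYB107, the partner of MYB9 in the seed coat, had 0.26 ± 0.43 and -0.03 ± 0.43. MYB39, also known as SUBERMAN, was the gene that fell in wild type, by 1.24 on the log2 scale (SE 0.43, adjusted p = 0.0395). Its wild type groups overlapped, and its probe was well above background on 2 of 3 wild type arrays on 3B7N. The value was -0.69 with slide as a block and 0.04 with normexp, and it was called under neither. In cry1cry2 MYB39 had 1.03 ± 0.43, not past the test. MYB49, MYB74 and MYB102 had values between -0.65 and 0.66 in both genotypes. Across the 12 arrays MYB41 correlated with the mean profile of the 4 genes at r = 0.64, and the other 6 had r between -0.46 and 0.10. Of 81 tested genes with another MYB symbol, 9 rose and 16 fell with 3B7N in wild type, and 6 rose and 8 fell in cry1cry2. These are 11.1% and 19.8%, against 5.89% and 9.09% of all genes, and 7.41% and 9.88%, against 2.11% and 1.63%.

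Of 12 tested genes of suberin monomer synthesis, 8 rose with 3B7N in wild type (median 1.20) and 6 in cry1cry2 (median 1.07), with 0 lower in either. Over all genes 5.89% were called higher and 9.09% lower in wild type, and 2.11% and 1.63% in cry1cry2. CYP86A1, the fatty acid hydroxylase of root suberin, rose by 2.14 ± 0.14 (log2, SE; adjusted p = 2.32e-06) in wild type and 3.69 ± 0.14 (adjusted p = 1.85e-07) in cry1cry2. GPAT5, the acyltransferase that joins suberin acids to glycerol, rose by 1.80 ± 0.23 and 2.19 ± 0.23, and its homologue GPAT7 by 1.14 ± 0.32 and 2.22 ± 0.32. FAR5, which makes the fatty alcohols of suberin, rose by 1.16 ± 0.28 and 2.53 ± 0.28. FAR5 was called in neither genotype with normexp (0.88 and 1.72), nor GPAT7 in wild type with normexp (1.00) or slide as a block (0.93), and the count of the list in wild type was 6 under both settings. CYP86B1, which hydroxylates very long fatty acids, and FACT, which esters fatty alcohols with caffeic acid, were the other members called in both genotypes. The elongase gene KCS2 and the reductase gene FAR1 went another way. KCS2 rose by 2.01 ± 0.22 in wild type. In cry1cry2 KCS2 had -0.98 ± 0.22, with an adjusted p of 0.0181 by limma, and missed a call by size alone. With quantile scaling it was called lower there, at -1.002. FAR1 rose by 3.30 ± 0.30 in wild type and had 0.36 ± 0.30 in cry1cry2, which did not pass the test. On DMSO KCS2 and FAR1 were already higher in cry1cry2 than in wild type, by 2.94 ± 0.22 and 4.69 ± 0.30, where MYB93 and MYB53 were lower. KCS1, KCS20, KCR1 and ASFT did not pass the test in either genotype. In wild type ASFT at 0.84 (adjusted p = 0.00897 by limma) and KCS1 at 0.485 (adjusted p = 0.0248) missed a call by size alone. FAR4 was not analysed here.

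Of 9 genes of suberin export and assembly, 7 rose in wild type (median 1.63) and 8 in cry1cry2 (median 2.07), with 0 lower. Over all genes 5.89% were called higher in wild type and 2.11% in cry1cry2. The list holds the transporters ABCG1, ABCG2, ABCG6, ABCG11 and ABCG20 and 4 loci without a symbol in the gene table. ABCG2 and ABCG20, half-size transporters needed for root suberin, rose by 1.76 ± 0.17 and 1.01 ± 0.17 (log2, SE) in wild type and by 2.81 ± 0.17 and 2.07 ± 0.17 in cry1cry2. ABCG1 had the reverse order, 2.87 ± 0.21 and 1.24 ± 0.21, and it was higher in cry1cry2 than in wild type on DMSO by 2.18 ± 0.21. With slide as a block its rise in cry1cry2 was not called, at 1.31. AT5G37690 and AT2G23540 rose by 1.73 ± 0.18 and 1.52 ± 0.18 in wild type and by 3.66 ± 0.18 and 3.60 ± 0.18 in cry1cry2. The AT5G37690 probe was well above background on 2 of 3 wild type arrays on DMSO. With normexp AT5G37690 was called in neither genotype, at 0.87 and 1.85, and ABCG20 was not called in wild type with normexp (0.94) or slide as a block (0.97). AT1G74460 had a log2 difference of -1.22 ± 0.20 between cry1cry2 and wild type on DMSO (adjusted p = 0.000465) and rose by 2.25 ± 0.20 with 3B7N in cry1cry2. The interaction was past the test in the direction of MYB93 for 5 of these 9 genes and in the other for 1, ABCG1. Of all genes it was for 12.7% and 5.92%. With normexp the counts for the list were 1 and 1, with median scaling 3 and 2, with quantile scaling 4 and 1, and with slide as a block 4 and 0.

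The Casparian strip list behaved differently between the genotypes. Of 12 genes tested, 7 rose with 3B7N in wild type (median 1.42), whereas 0 rose and 1 fell in cry1cry2 (median 0.04). Over all genes 5.89% were called higher in wild type, and 2.11% higher and 1.63% lower in cry1cry2. The scaffold genes CASP1, CASP2, CASP4 and CASP5 rose in wild type by 1.83 ± 0.19, 1.73 ± 0.21, 1.93 ± 0.24 and 2.29 ± 0.31 (log2, SE). ESB1, a dirigent protein that places the lignin, rose by 2.19 ± 0.19, and the peroxidase gene PER64 by 1.52 ± 0.17. In cry1cry2 these CASP genes had values from -1.07 to 0.20, and CASP4 was the gene that fell (adjusted p = 0.0206 by limma). CASP4 was not called there with slide as a block, at -0.83, or with normexp, at -0.99. The interaction was negative and past the test for 6 of the 12 genes, CASP1, CASP2, CASP4, CASP5, ESB1 and PER64, and positive for 0. Of all genes it was negative for 5.92% and positive for 12.7%. With slide as a block 3 of the 12 were past the test. On DMSO, 5 of the 12 were called higher in cry1cry2 than in wild type, where MYB93 and MYB53 were lower and 7.64% of all genes were called higher. With slide as a block 3 of the 12 were called higher, and 2 without array 2 of cry1cry2 on DMSO. MYB36, the regulator of the strip, and SCR and SHR, which specify the endodermis, had values between -0.22 and 0.56 in both genotypes and did not pass the test.

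**Figure D3:**
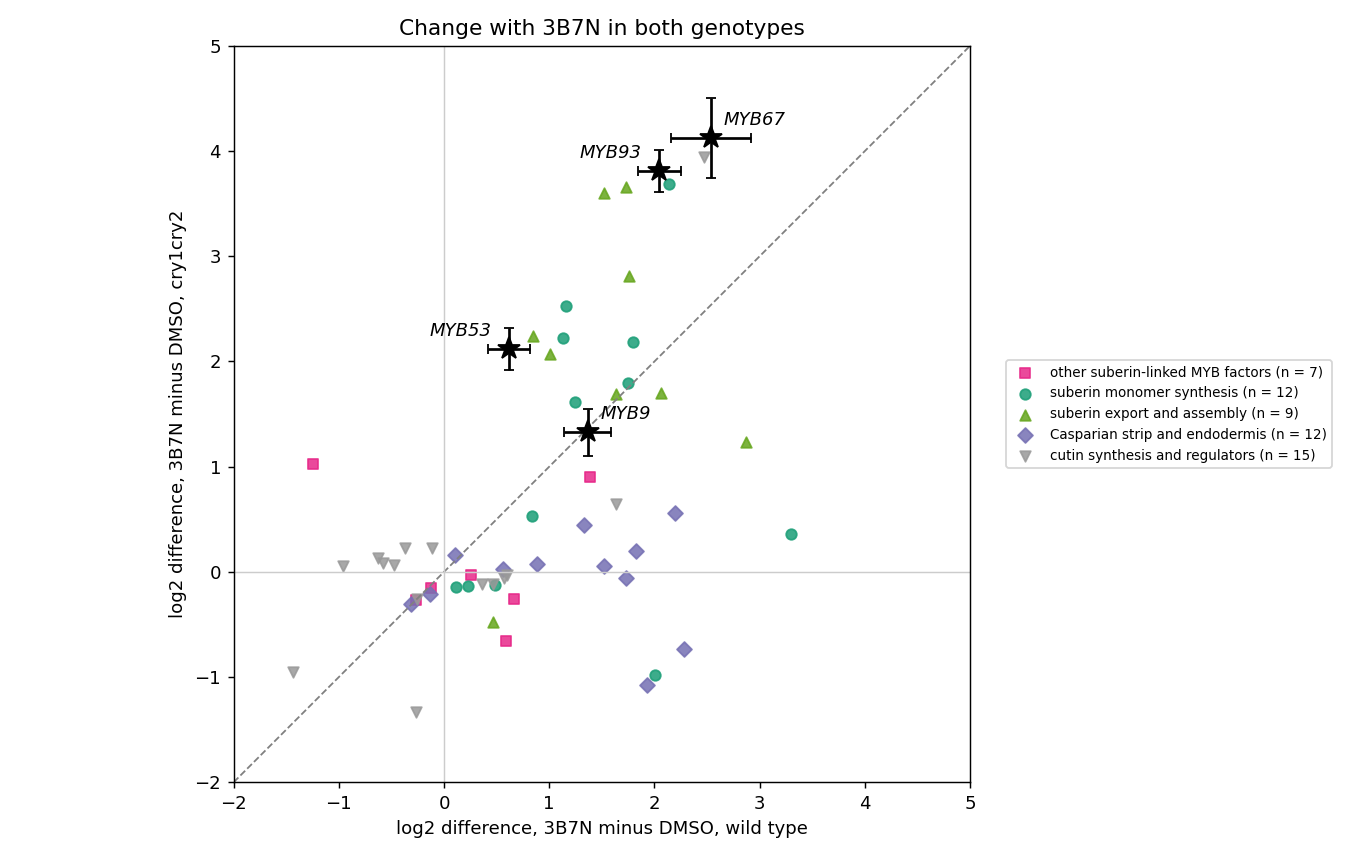
Each symbol is 1 gene, with its log2 difference between 3B7N and DMSO in wild type on the horizontal axis and in cry1cry2 on the vertical axis; stars are MYB93, MYB53, MYB67 and MYB9 with their SE, other symbols are the genes of 5 lists, and the dashed line marks equal differences. The DMSO and 3B7N arrays of each genotype enter 1 axis only. MYB93, MYB53 and MYB67 lie above the line and MYB9 on it, while the 4 CASP genes named in the text lie below it, between 1.73 and 2.29 in wild type and between -1.07 and 0.20 in cry1cry2.

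Cutin, the polyester of the shoot surface, shares enzyme families with suberin, and of its 15 genes tested 2 rose and 1 fell in wild type (median -0.26), and 1 rose and 1 fell in cry1cry2 (median 0.06). That is 13.3% and 6.67% in wild type, against 5.89% and 9.09% of all genes, and 6.67% each way in cry1cry2, against 2.11% and 1.63%. GPAT6, a glycerol acyltransferase known from flower cutin, was the member that rose in both, by 2.47 ± 0.20 and 3.95 ± 0.20 (log2, SE). CYP86A4 rose in wild type, by 1.64 ± 0.21. CYP77A6, a cutin hydroxylase, fell there by 1.44 on the log2 scale (-0.87 with normexp, not called), and GPAT8 fell by 1.33 in cry1cry2 (-1.35 with slide as a block, not called).

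The profile of the 4 genes over the 12 arrays, taken as the mean of their centred and scaled signals, was most like that of ABCG10 (r = 0.99), CYP86A1 (r = 0.99), QRT1 (r = 0.99), GPAT6 (r = 0.98), ABCG2 (r = 0.98), WRKY24 (r = 0.98), QRT2 (r = 0.98), ABCG20 (r = 0.98), TBL4 (r = 0.97) and TLP-3 (r = 0.97) among genes with a symbol. TBL4 was well above background on 5 of the 12 arrays and WRKY24 on 10. Of the genes named below, PDLP4 was so on 9 and KCS17 on 11. MYB67, which is part of the mean profile, was so on 0 of 3 wild type and 1 of 3 cry1cry2 arrays on DMSO. These correlations have n = 12 arrays that form 4 groups and 3 slides, and are a description. Of single genes, MYB93 was most like CYP86A1, PDLP4 and LAC13 (r = 0.98 to 0.99), MYB53 most like ABCG10, KCS17 and MLP328 (r = 0.94), and MYB67 most like NAC038, QRT2 and QRT1 (r = 0.97). MYB9 was most like GAMT2, NF-YB5 and WRKY56 (r = 0.94 to 0.95). GAMT2 rose alike in both genotypes, with differences of 1.75 and 1.81, as MYB9 did, and ABCG10 had 1.48 and 2.65. Among themselves, MYB93 and MYB53 had r = 0.94, MYB93 and MYB67 r = 0.92, and MYB53 and MYB9 r = 0.70, the lowest of the 6 pairs.

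The samples were whole seedlings, in which fewer cells of a type and less RNA per cell cannot be told apart. Of 7 root hair and epidermis markers, 0 met the call rule with 3B7N in either genotype, although COBL9 at -0.84 and EXPA18 at -0.73 in wild type had adjusted p of 0.0151 and 0.0182 by limma. On DMSO 11.4% of all genes were called lower in cry1cry2 than in wild type. Of the 7 markers 4 were (median -1.74), in the direction of MYB93 and MYB53, and 2 with normexp. The summed level of that list was 0.24 to 0.57 in wild type on DMSO, -0.18 to 0.05 in wild type on 3B7N, -0.74 to -0.71 in cry1cry2 on DMSO and -0.83 to -0.11 in cry1cry2 on 3B7N, all as relative log2. Of 3 root cap markers, 2 fell with 3B7N in wild type, where 9.09% of all genes did, and 0 were called in cry1cry2. The count in wild type was 1 with slide as a block and 0 with normexp. On DMSO 1 was called lower in cry1cry2, and 0 with normexp. Their summed level was -1.29 to -1.21 and -2.32 to -1.98 in wild type on DMSO and 3B7N, and -2.16 to -1.94 and -2.87 to -1.99 in cry1cry2. Of 6 leaf mesophyll markers, 0 were called with 3B7N and 5 were called lower in cry1cry2 on DMSO. That count was 4 with normexp, 3 with slide as a block and 2 with quantile scaling. Their summed level was 8.57 to 8.87 and 8.47 to 9.24 in wild type and 6.83 to 7.82 and 7.59 to 7.92 in cry1cry2. The part of these shifts in the differences of MYB93 and MYB53 on DMSO was not tested.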

How the data were processed

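Per the file headers, spot signals came from version 10.7.3.1 of Agilent's Feature Extraction software, and the processed intensity that the authors deposited is background-subtracted and not scaled between arrays. The authors also deposited, for each 3B7N comparison, a list of probes with an unsigned fold and a p-value, whose making is not given in the sources used here. From there, log2 intensities of 43603 probes, with control and outlier spots left out, were set relative to each array's 75th percentile. A probe had to be flagged well above background on every array of some group, the brightest probe stood for a gene, and 20487 genes were tested in 1 fit of the 4 group means with limma 3.58.1 (R 4.3.3). The procedure was checked on simulated data. Arrays give no counting depth, and their number limits the precision. Probes were joined to loci and symbols through RefSeq accessions in a list of genes of the TAIR10.1 assembly; the headers name TAIR10, so no coordinates are given.

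The 4 genes and all gene lists were chosen with earlier results of these data known, and 1 gene of the Casparian strip list is not reported here. Genes named are the 4 genes, the 7 other MYB factors linked to suberin, up to 6 called genes with the largest change in each list, members of counts of 5 or fewer, and the genes of most similar profile; other named list genes were chosen after their values were seen. Alternatives were median and quantile scaling, normexp, other filters on dim probes, the mean of probes, slide or replicate number as a block, the compared groups alone, the adjusted p alone and each array left out. The files hold no mean signal, so normexp ran on median signals, an alternative chosen after seeing the data, as were the within-slide values.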

Additional observations from a re-analysis of the deposited data

Results flagged for a closer look

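Some genes differed between the genotypes in their change with 3B7N (cry1cry2 minus wild type, log2), by limma's interaction term with adjustment over all genes. For MYB93, MYB53 and MYB67, which were chosen with these values known, they were 1.77, 1.50 and 1.59. In the same direction, MYB39 had 2.27, CYP86A1 1.55, FAR5 1.37, ABCG2 1.05, ABCG20 1.07, AT1G74460 1.40, AT2G23540 2.08, AT5G37690 1.93 and GPAT6 1.48, and LACS1, an acyl-CoA synthetase of wax and cutin synthesis, had 1.02. In wild type the MYB39 probe was well above background on 2 of 3 arrays on 3B7N, and the AT5G37690 probe on 2 of 3 on DMSO. In the opposite direction, KCS2 had -2.99, FAR1 -2.93 and ABCG1 -1.63. The Casparian strip genes had -1.63 for CASP1, -1.79 for CASP2, -3.003 for CASP4, -3.02 for CASP5, -1.63 for ESB1 and -1.46 for PER64. With slide as a block, normexp, quantile scaling and median scaling each in turn, CYP86A1, KCS2, FAR1, AT2G23540, CASP4 and CASP5 passed throughout. With slide as a block MYB39, FAR5, ABCG1, ABCG2, CASP1, CASP2, ESB1, PER64 and LACS1 did not pass. With normexp MYB93 (0.66), MYB53 (0.17), MYB67 (0.08), MYB39 (-0.26), FAR5 (0.84), ABCG2 (0.83), ABCG20 (0.94), AT1G74460 (1.15), AT5G37690 (0.985), GPAT6 (0.75) and LACS1 (0.92) did not. Quantile scaling ended the calls of MYB67 (0.70), MYB39, ABCG2 and LACS1, and median scaling those of MYB67 (1.45), ABCG2, ABCG20 and LACS1.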

How the results depend on the processing

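With normexp, 1 of the 4 genes was called higher with 3B7N in wild type and 1 in cry1cry2 (3 and 4 as reported), and 0 on 3B7N between the genotypes (1 as reported), where MYB67 turned to -0.009. That count was also 0 with the filter of background on all arrays, which leaves MYB67 out, and with slide as a block, and 0 to 1 with an array left out; leaving out any single array left the counts with 3B7N at 3 and 4. Over all alternatives the difference with 3B7N in cry1cry2 ranged from 2.20 to 3.97 for MYB93, 0.72 to 2.16 for MYB53, 0.80 to 4.52 for MYB67 and 0.50 to 1.74 for MYB9. In wild type the ranges were 1.53 to 2.18, 0.12 to 0.87, 0.72 to 2.96 and 0.85 to 1.54.

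The count of all genes called was 3069 in wild type (1613 with normexp, 8199 by adjusted p alone), 767 in cry1cry2 (308 with slide as a block, 1558 by adjusted p alone), 3895 between genotypes on DMSO (2451 with normexp, 9130 by adjusted p alone), 1492 on 3B7N (46 with slide as a block, 5355 by adjusted p alone) and 3816 for the interaction (2022 with normexp, 6118 by adjusted p alone). Median scaling moved the share of higher among called genes from 39.3% to 52.4% in wild type, from 55.2% to 36.1% between genotypes on 3B7N and from 68.2% to 57% for the interaction. Replicate numbers did not pair the samples: deviations of same-numbered arrays correlated at -0.33 to 0.36, over 0.1 in 6 of 18 pairs. With the replicate block, 3 of the 4 genes were called in wild type, 4 in cry1cry2, 0 higher on DMSO and 1 on 3B7N, as without it, and MYB67 lost its interaction call. The causes were not tested. On DMSO, MYB67 was above background on 1 of 6 arrays.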
